A study of Mus musculus with 2 samples.

Results

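The 9 genes Camp, Ngp, Ltf, Lcn2, Mmp8, Mmp9, Retnlg, S100a8 and S100a9 encode the late granule proteins and the S100 proteins of neutrophils. They were chosen by symbol and all 9 were found among the 32245 symbols of the series. Adrenal glands of female C57BL/6J mice, all of the genotype SF1-Cre+;Znrf3Fx/Fx, were studied by single-cell RNA sequencing, with 1 library from 2 adrenals at 6 weeks and 1 library from 3 adrenals at 9 weeks. The SF1 promoter drives Cre in steroid-producing cells, and there removes Znrf3, whose product is a membrane ubiquitin ligase acting as a brake on Wnt signalling. Both ages carry this deletion, no control genotype was analysed here, and the adrenals of an age were pooled. The ages stand for a hyperplastic gland (6 weeks) and for the start of its regression (9 weeks), and the study asked how the immune cells of the gland differ between them. There are no replicates, so no test was possible, every comparison is of these 2 libraries, and all intervals are exact 95% intervals for counting error only. Age therefore cannot be told apart from the library, the pool of animals or the sort.

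Neutrophils fill their granules in sequence while they mature. Primary granule enzymes such as Mpo and Elane are made by dividing precursors, the proteins of the specific granules follow, and those of the gelatinase granules are made last. The S100 proteins S100a8 and S100a9 form calprotectin, a cytosolic complex that binds calcium and chelates zinc and manganese. In mice this maturation is known to take place in bone marrow, and mature cells enter the blood and tissues.

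Several of the genes share a chromosome (mm10, GENCODE M21). Camp (chromosome 9, 109847379 to 109849617, minus strand), Ngp (110419747 to 110423012, plus strand) and Ltf (111019271 to 111042767, plus strand) lie in this order on chromosome 9. The gaps are 570.1 kb between Camp and Ngp and 596.3 kb between Ngp and Ltf. Mmp8 lies on the same chromosome at 7558456 to 7568485. S100a8 (chromosome 3, 90668978 to 90670035, plus strand) and S100a9 (90692632 to 90695721, minus strand) are 22.6 kb apart on opposite strands. Lcn2 (32384633 to 32388252, minus strand) and Mmp9 (164940780 to 164955850, plus strand) are on chromosome 2, and Retnlg (48872621 to 48874496, plus strand) is on chromosome 16.

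Promoters of 8 of the 9 genes were matched in RefSeq (GRCm38.p6), each from 250 bases before to 50 bases after the start of transcription. The C/EBP family of transcription factors, which includes the granulocyte factor Cebpe, binds sites related to TTGCNNAA. These letters, searched on both strands, were found in 6 of the 8 promoters and in 10.8% of all 32851 promoters of the same length. GGAA, the core of ETS factor sites such as those of Spi1, was in all 8 but also in 96.0% of all promoters. Camp and S100a8 did not hold the C/EBP letters in this window, which says nothing of the factor. The promoters of Camp, Ngp and Ltf, of Lcn2 and of the later genes Mmp8 and Retnlg are shown, with C/EBP matches in capitals. These groups were chosen because they differed in where they peaked.
Camp (chr9:109849407-109849706, minus strand): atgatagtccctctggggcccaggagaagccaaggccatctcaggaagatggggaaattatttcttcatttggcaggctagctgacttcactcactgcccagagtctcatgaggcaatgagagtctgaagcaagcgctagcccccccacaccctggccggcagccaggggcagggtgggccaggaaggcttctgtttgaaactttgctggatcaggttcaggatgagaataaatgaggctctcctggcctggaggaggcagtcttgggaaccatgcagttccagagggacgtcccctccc
Ngp (chr9:110419558-110419857, plus strand): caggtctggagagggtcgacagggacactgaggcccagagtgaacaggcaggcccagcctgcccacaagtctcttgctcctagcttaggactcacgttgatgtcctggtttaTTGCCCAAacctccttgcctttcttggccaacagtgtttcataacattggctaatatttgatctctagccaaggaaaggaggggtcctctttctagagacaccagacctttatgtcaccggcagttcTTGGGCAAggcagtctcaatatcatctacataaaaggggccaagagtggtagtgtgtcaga
Ltf (chr9:111019042-111019341, plus strand): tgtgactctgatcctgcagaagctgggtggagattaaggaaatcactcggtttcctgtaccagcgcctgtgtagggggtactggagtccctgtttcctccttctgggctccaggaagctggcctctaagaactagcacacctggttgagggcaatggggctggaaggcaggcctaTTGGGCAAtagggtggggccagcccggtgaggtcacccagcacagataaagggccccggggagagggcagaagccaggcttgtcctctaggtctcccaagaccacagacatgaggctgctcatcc
Lcn2 (chr2:32387690-32387989, minus strand): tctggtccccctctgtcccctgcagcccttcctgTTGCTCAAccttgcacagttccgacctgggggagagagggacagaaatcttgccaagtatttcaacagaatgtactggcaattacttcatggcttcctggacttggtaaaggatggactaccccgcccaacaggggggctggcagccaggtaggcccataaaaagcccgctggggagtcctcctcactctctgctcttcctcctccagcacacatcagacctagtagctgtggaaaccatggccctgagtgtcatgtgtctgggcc
Mmp8 (chr9:7558179-7558478, plus strand): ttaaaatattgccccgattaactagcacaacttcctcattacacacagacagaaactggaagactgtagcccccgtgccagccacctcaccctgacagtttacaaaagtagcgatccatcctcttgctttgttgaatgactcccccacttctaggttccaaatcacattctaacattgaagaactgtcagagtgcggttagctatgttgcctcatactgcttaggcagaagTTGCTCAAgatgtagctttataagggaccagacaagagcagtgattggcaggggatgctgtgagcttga
Retnlg (chr16:48872358-48872657, plus strand): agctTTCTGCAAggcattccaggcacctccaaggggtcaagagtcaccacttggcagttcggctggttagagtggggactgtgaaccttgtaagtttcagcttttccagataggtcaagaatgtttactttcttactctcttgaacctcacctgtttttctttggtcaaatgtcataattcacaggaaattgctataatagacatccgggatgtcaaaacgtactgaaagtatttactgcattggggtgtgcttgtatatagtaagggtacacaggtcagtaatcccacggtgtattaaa
The matches were TTGCCCAA and TTGGGCAA in Ngp, TTGGGCAA in Ltf, TTGCTCAA in both Lcn2 and Mmp8, TTCTGCAA in Retnlg and TTGCTTAA in S100a9.

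Neutrophils were found without use of the 9 genes, which were left out of the clustering, of the markers and of the maturation index. Neutrophil-like cells numbered 192 of 8133 at 6 weeks (2.36%, 95% interval 2.04 to 2.71) and 798 of 9941 at 9 weeks (8.03%, 7.50 to 8.58). By their markers they fell into 3 stages, named as rebuilt classes. The mature stage held 189 cells at 6 weeks and 430 at 9 weeks, the immature stage 3 and 265, and the precursor stage 0 and 103. A count of 0 precursors among 192 neutrophil-like cells allows a share of up to 1.90%. All 10 markers of mature neutrophils (among them Csf3r and Cxcr2) were detected in every stage and their sum was highest in the mature stage, at 13275 CPM (UMIs scaled to a common total of the stage) at 6 weeks and 14121 at 9 weeks. The stages also differ in depth, with medians of 20713 (precursor), 7521 (immature) and 1845.5 (mature) UMIs per cell at 9 weeks and 1531 in the mature stage at 6 weeks. Macrophage markers and Cd74 were highest in the precursor stage at 9 weeks. The 8 macrophage markers were all above 10 CPM there and summed to 2146, against 186 in the immature and 757 in the mature stage at 9 weeks, and Cd74 stood at 1925, 105 and 250 CPM. The origin of these transcripts and their part in the precursor values were not tested.

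Together the 9 genes made up 14.4% of all UMIs of neutrophil-like cells at 6 weeks and 31.5% at 9 weeks. Their share was 27.2% in the precursor, 42.3% in the immature and 14.98% in the mature stage at 9 weeks, against 13.8% in the mature stage at 6 weeks. The mature cells of both ages thus gave the genes like shares, and the immature stage, with 3 cells at 6 weeks, was the richest.

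**Figure D1:**
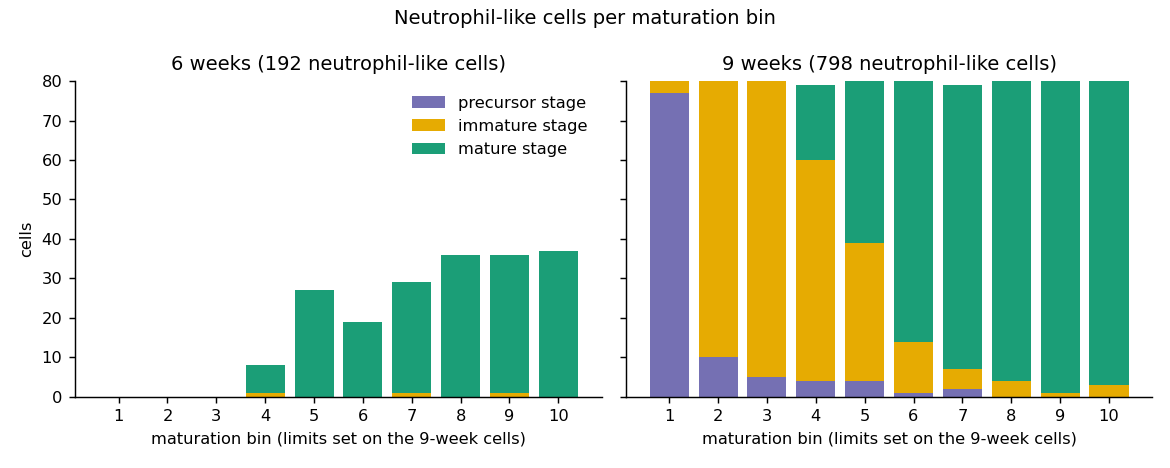
Number of neutrophil-like cells (y axis) in each of 10 bins of the maturation index (x axis) at 6 weeks (left) and 9 weeks (right), coloured by stage. No 6-week cell falls in bins 1 to 3, and the bins hold 79 or 80 cells each at 9 weeks by construction.

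Within the 9-week neutrophils the genes peaked, as a share of UMIs, in a sequence: Camp, Ngp and Lcn2 first, Ltf, S100a8 and S100a9 next, then Mmp8 and Mmp9, and Retnlg last. In UMIs per cell, Camp, Ngp, Lcn2, S100a8 and S100a9 all peaked in bin 1, Ltf in bin 2, Mmp8 and Mmp9 in bin 3 and Retnlg in bin 4, so on that scale the S100 genes were not later than Camp. Median depth fell from 22599.5 UMIs per cell in bin 1 to 8545.5 in bin 3 and 1758 in bin 10. Cells were ordered by an index of 16 late minus 16 early genes, cut into 10 bins with equal numbers of 9-week cells. Levels are CPM over all UMIs of the bin. Since 3' counting gives 1 UMI per captured transcript whatever its length, no level was scaled by length, and genes are compared by where they peak rather than by level. The mean position of a gene is its level-weighted place on a scale from 0 (earliest) to 1 (latest).

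By mean position, Camp, Ngp, Ltf and Lcn2 came first. Camp, which encodes the cathelicidin antimicrobial peptide, stood at 40884 CPM in bin 1, peaked at 49098 (48650 to 49550) in bin 2, and was at 19385 in bin 4, 4237 in bin 5 and 648 in bin 10. Its mean position was 0.195, the lowest of the 9 genes. Ngp, a granule protein related to cystatins and cathelicidins, rose from 33939 in bin 1 to 45659 in bin 2 and was still at 25629 in bin 4 and 9794 in bin 5 (position 0.226). Ltf, the iron-binding lactotransferrin, stood at 4731 in bin 1, and its levels of 10885 in bin 2 and 10982 in bin 3 were within counting error of each other (position 0.252). Lcn2, a lipocalin that binds bacterial siderophores, peaked at 23774 in bin 2 but fell less steeply, to 6006 in bin 6 and 3655 in bin 10 (position 0.328). The peak of Camp was 75.7 times its level in bin 10, that of Ngp 42.4 times, that of Ltf 16.1 times and that of Lcn2 6.51 times. These folds rest on few immature cells, of which bin 10 held 3 and bin 9 held 1. In bin 9 Camp was at 164 CPM, Ngp at 109.5 and Ltf at 0 UMIs, which allows up to 22.4 CPM, so the order of the falls in bin 10 does not hold there.

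The S100 genes had broad profiles. As a share of UMIs, S100a8 was at 82465 CPM in bin 1, 125898 in bin 3 and 48000 in bin 10, and S100a9 at 103583, 165695 and 71969. In UMIs per cell both fell from bin 1 on, S100a8 from 2015 through 1401 in bin 2 and 1201 in bin 3 to 87.0 in bin 10, and S100a9 from 2531 through 1847 and 1581 to 130.5. Their mean positions were 0.421 and 0.438. As shares, both genes were thus within 2.62 times of their peak in bin 10, where Camp stood 75.7 times below its own.

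Mmp8, Retnlg and Mmp9 came last by mean position. Mmp8, the neutrophil collagenase, was at 89.0 CPM in bin 1, 2095 in bin 3 and 3104 (2950 to 3263) in bin 4, with bin 5 within counting error of the peak, and at 979 in bin 10 (position 0.479). Retnlg, a resistin-like cytokine, rose 59.1 times from 599.5 in bin 1 to 35455 in bin 5 and declined to 11681 in bin 10 (position 0.554). Per cell Retnlg rose from 14.7 UMIs in bin 1 to 154 in bin 4, and Mmp8 from 2.17 to 19.99 in bin 3, so both rose on either scale. Mmp9, gelatinase B, was at 178 in bin 1 and 2890 (2742 to 3043) in bin 4 (position 0.567). Bins 5, 6, 9 and 10 were within counting error of the peak, while bins 7 (2450) and 8 (2080) lay below it. As a share of UMIs, Mmp9 is the only one of the 9 genes whose level in the last bin lay within counting error of its peak. Per cell Mmp9 peaked at 21.4 UMIs in bin 3 and was at 4.70 in bin 10. Neighbours in this order that lie close together are S100a8 and S100a9, and Retnlg and Mmp9. The latter pair changed places when cells were thinned to 1000 UMIs before ordering (0.590 and 0.573).

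**Figure D2:**
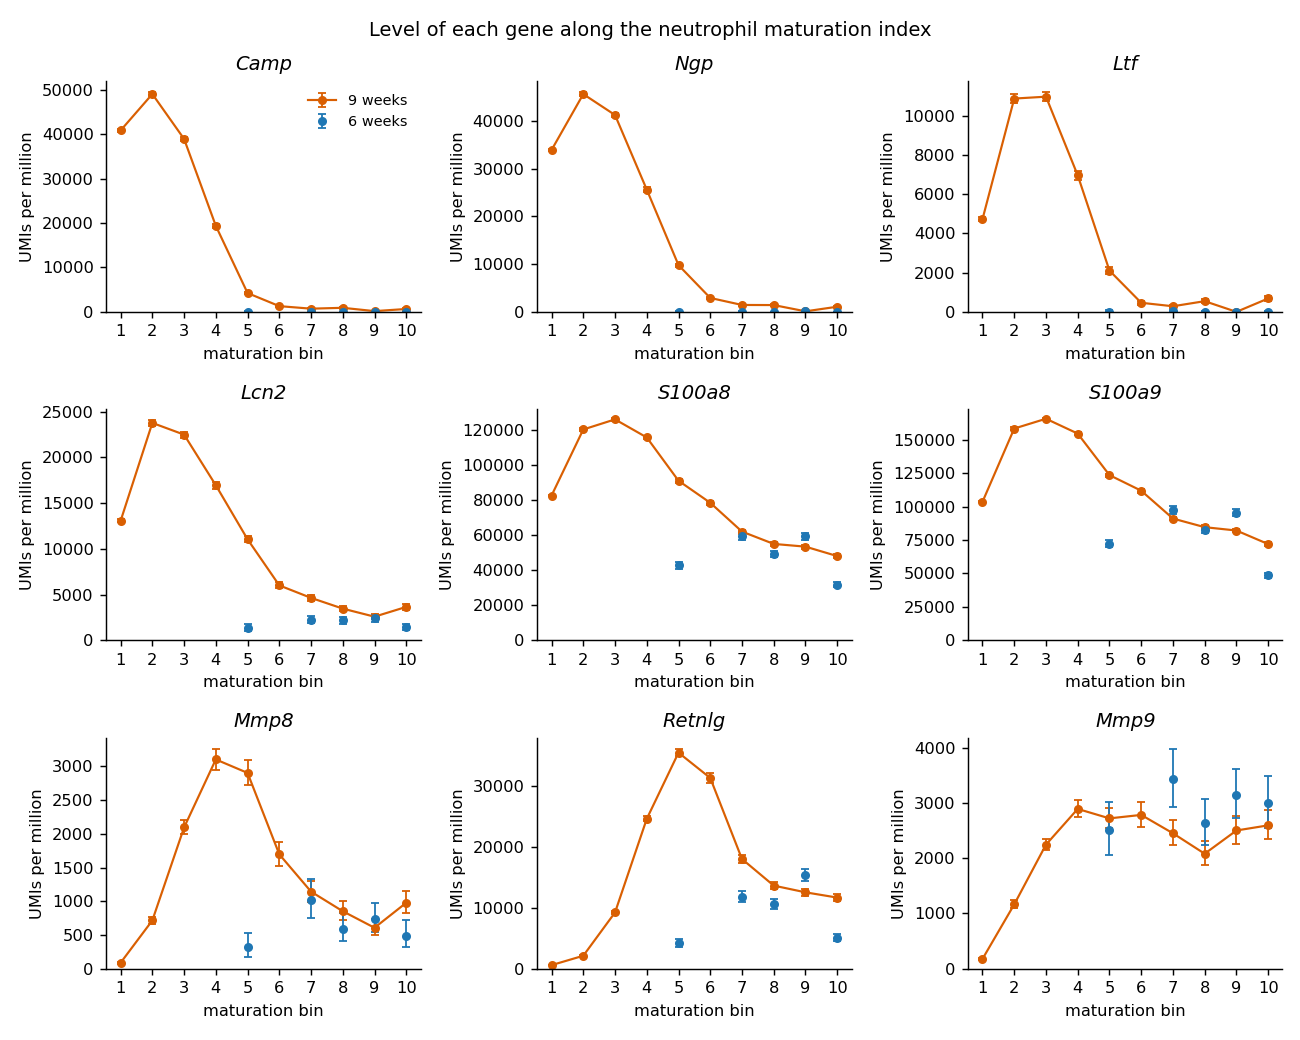
Level of each gene (y axis, CPM, each panel from 0 on its own scale) over 10 maturation bins (x axis), at 9 weeks (orange, joined by a line) and at 6 weeks (blue, bins of at least 20 cells), with exact 95% counting intervals. Panels follow the mean position, from Camp (0.195) to Mmp9 (0.567), and the 6-week points of Camp and Ltf lie at or near 0.

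Genes that followed the same course were sought among 2144 genes of at least 100 CPM in some bin, by Pearson r of log2 levels over the 10 bins. These values describe 1 library, and the bins share its cells. Closest to Camp were Vcl (r = 0.99), Cybb (0.99), the membrane subunit of the NADPH oxidase, and Ets1 (0.98). Ngp ran closest to Ly6c2, Adpgk and Ets1 (each 0.98). Nearest to Ltf were Ppm1m (0.96), Dbnl (0.95) and Anxa3 (0.94), and to Lcn2 Aldh2 (0.99), Dstn (0.98) and Cd177 (0.98), a surface protein of neutrophils. Wfdc21 led for both S100a8 and S100a9 (0.99 each). Mmp8 was closest to Ostf1 (0.97), Mmp9 to Ifitm3 (0.98) and Retnlg to the kinase gene Bmx (0.98). Among the members, r was 0.98 for Camp and Ngp, 0.96 for Ngp and Ltf, 0.99 for S100a8 and S100a9 and 0.92 for Mmp9 and Retnlg, and it was -0.54 for Camp and Retnlg.

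The same 2 courses were seen from cell to cell within the immature stage. Over its 264 cells thinned to 1000 UMIs, r was 0.86 for Camp and Ngp, 0.85 for Camp and Ltf and 0.61 for Mmp8 and Retnlg, but -0.59 for Camp and Retnlg and -0.51 for Ngp and Retnlg. Per 10000 UMIs of a cell, Camp ranged from 0 (lowest) through 317.5 (median) to 802 (highest) across the 265 immature cells, and 18 of them held none. Retnlg ranged from 0 through 96.2 to 1105, with 15 cells at 0. S100a8 was found in every immature cell, from 79.9 through 1273 to 1875, so it spread far less than Camp and Retnlg.

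Stage by stage, in CPM, 8 of the 9 genes were highest in the immature stage at 9 weeks and Camp in the precursor stage, at 38229 CPM against 35803 in the immature stage. In UMIs per cell, 6 were highest in the precursor stage, among them Ngp (712 against 318 in immature cells) and S100a8 (1817 against 1052), and only Mmp8 (5.61 and 18.3), Mmp9 (7.29 and 18.9) and Retnlg (36.4 and 138) were highest in the immature stage. Of all 7614 genes measured, 7252 were highest per cell in the precursor stage, whose cells are the deepest, and 188 in the immature stage. In CPM, 4023 were highest in the precursor, 692 in the immature and 2899 in the mature stage. Other late granule and secreted genes were highest in the immature stage in 12 of 18 cases in CPM and in 4 per cell, among them Lyz2 (21305 CPM against 13725 in precursors and 4197 in mature cells), Anxa1 (5013, 3134 and 1328) and Pglyrp1 (4649, 2582 and 2080). Chil3 was an exception, at 10618 in precursors and 6608 in immature cells. It is also 1 of the markers that named the immature stage. Anxa1, Pglyrp1 and other genes of this list were leading genes of the immature cluster, so the count of 12 is no finding. Of 9 primary granule genes 8 were highest in precursors in CPM, and Srgn, the proteoglycan core of granules, was highest in mature cells at 4931, while per cell all 9 were highest in precursors. Several primary granule genes also named the precursor stage, so that count is no finding. Among 8 transcription factors of granulopoiesis, Cebpe fell from 709 in precursors through 438 to 29.6 CPM in mature cells, and per cell from 16.0 through 3.63 to 0.0581 UMIs, while Cebpb (363, 270 and 1106), Cebpd (357, 476 and 1418) and Spi1 (478, 637 and 1238) were highest in mature cells in CPM. Per cell all 8 factors were highest in precursors, Cebpb for example at 8.16, 2.24 and 2.17 UMIs.

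The precursor stage itself was mixed. Its 103 cells were ranked by the summed level of the primary granule genes Mpo, Elane, Prtn3, Ctsg and Ms4a3 and divided into 4 groups of 26, 26, 26 and 25 cells, a split chosen after the data were seen. In the group with the most primary granule RNA (10735 CPM summed), Camp was already at 30304 CPM, Ngp at 18668, Lcn2 at 5370 and Ltf at 1312. In the next group, where the primary granule genes had fallen to 482, Camp stood at 49046, Ngp at 45263, Lcn2 at 18416 and Ltf at 7319. Ltf and Lcn2 thus differed more between these groups than Camp did. Mmp8 was at 58.1 and 177, and Retnlg at 476 and 1056. Mki67, a gene of dividing cells, was at 579 and 580 in these groups and at 314 in the last. In the last group, with no primary granule UMI, Camp was lower, at 24459, while Retnlg was at 5123 and Mmp8 at 848, and Cd74 was highest there, at 4562, against 1165 in the first group. Camp and Ngp were absent from 2 and 4 cells of the first group.

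**Figure D3:**
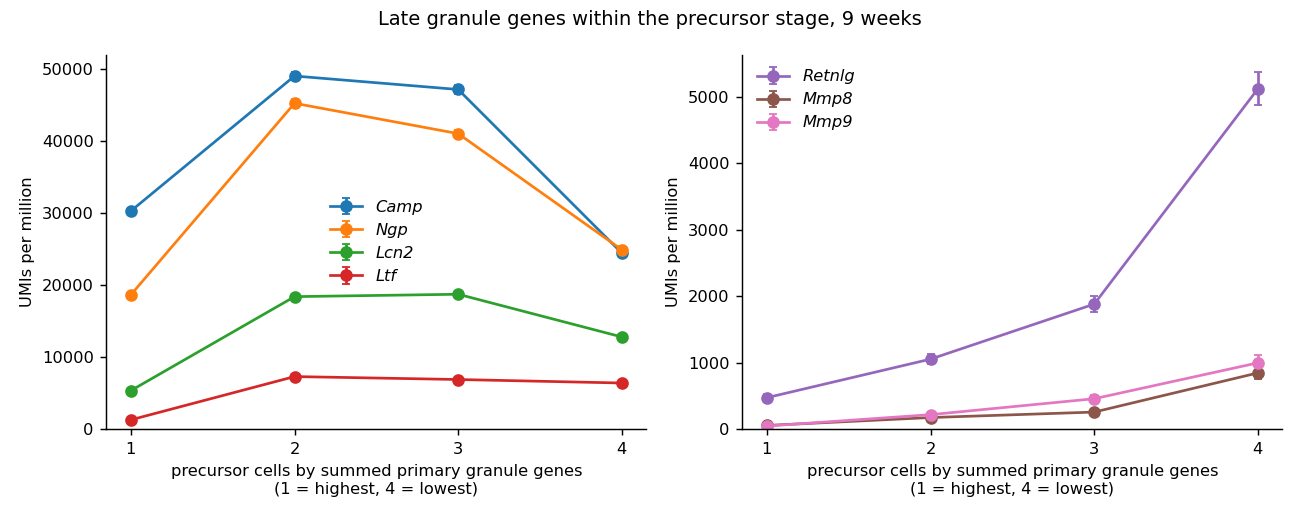
Level (y axis, CPM, from 0) of the earlier genes (left) and the later genes (right) in 4 groups of precursor-stage cells at 9 weeks, ordered by summed primary granule genes (x axis, 1 = highest), with exact 95% counting intervals. Camp peaks in group 2 at 49046, and Retnlg is highest in group 4 at 5123.

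Across all neutrophil-like cells, 7 of the 9 genes were higher at 9 weeks by at least 1.5-fold (with 5 CPM added to each level), Mmp9 was lower, and Retnlg did not differ by that fold. Of 6881 genes measured in these cells, 27.5% were higher and 32.9% lower by the same rule. The split depends on the scale: when the UMIs of the 9 genes are left out of the totals, 37.4% of all genes are higher and 22.2% lower, and the members' calls stay at 7 higher and 1 lower. This comparison mixes stages that only the 9-week library holds in number. Camp and Ltf passed the filter on low values only through the 9-week library and so had to be called higher, and nothing is read from the count of 7.

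Camp, Ngp, Ltf and Lcn2 differed most. Camp had 0 UMIs in the 192 cells at 6 weeks, where 3 UMIs would be 9.43 CPM, and 167220 UMIs or 31217 CPM at 9 weeks. That is 3311 times the floor of 3 UMIs in the library, and the counting interval of the ratio starts at 2693. Ngp had 14 UMIs (44.0 CPM) and 157802 UMIs (29459), a ratio of 669.6 (399 to 1225). Ltf had 1 UMI at 6 weeks (3.14 CPM) and 32304 UMIs (6031) at 9 weeks, and its ratio of 1919 has a counting interval from 344 to 75806. Lcn2 was present at both ages, at 1958 and 15066 CPM (ratio 7.70, 7.11 to 8.34).

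The other genes differed less. S100a8 was at 48966 and 95270 CPM (ratio 1.95, 1.91 to 1.98) and S100a9 at 79625 and 125747 (1.58, 1.56 to 1.60). Mmp8 was at 654 and 1106 (1.69, 1.47 to 1.95). Retnlg was at 9527 and 9399 (0.986, 0.951 to 1.02). Mmp9 was at 2979 and 1432 (0.481, 0.449 to 0.515), the only gene of the 9 that was lower in CPM by the fold at 9 weeks. Its direction turned in UMIs per cell, at 4938 and 9610 per 1000 neutrophil-like cells, and with at least 1000 genes per barcode (log2 ratio 0.43).

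Within the mature stage the ages were much closer. Of the 8 genes that passed the filter on low values (Ltf, with 1 and 7 UMIs, did not), 2 were higher at 9 weeks by the fold, Camp and Ngp, and none was lower, beside 9.61% higher and 15.9% lower of 5762 genes measured. Camp, with 0 UMIs at 6 weeks, passed the filter only through the 9-week library and had to be called higher, so nothing is read from this count. The median log2 ratio of these 8 genes was 0.31 and that of all genes -0.10. S100a8 was at 47551 CPM at 6 weeks and 52489 at 9 weeks (ratio 1.10, 1.08 to 1.12), and S100a9 at 76086 and 79522 (1.05, 1.03 to 1.06). Retnlg was at 8669 and 11993 (1.38, 1.33 to 1.44), Lcn2 at 1873 and 2785 (1.49, 1.36 to 1.63), just under the fold, and Mmp8 at 621 and 581 (0.936, 0.791 to 1.11). Mmp9 was at 2976 and 2253 (0.757, 0.699 to 0.820). Counting intervals of Lcn2, Mmp9, Retnlg and the S100 genes lie clear of 1, but no replicate shows how far 2 libraries of 1 age would differ.

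Camp and Ngp in the mature stage were then set beside endothelial-like cells, which should lack both genes. Camp was at 0 UMIs in 189 cells at 6 weeks and 58 UMIs in 430 cells at 9 weeks, or 135 per 1000 cells (102 to 174), and endothelial-like cells of the same library held 113 per 1000 (97.0 to 131). It was found in 10.7% of mature neutrophils (median 1845.5 UMIs) and 10.0% of endothelial-like cells (median 2619 UMIs). After thinning to 1000 UMIs these shares were 6.87% (4.65 to 9.72) and 4.802% (3.79 to 5.99). Ltf was at 16.3 per 1000 mature neutrophils (6.55 to 33.5) and 25.1 per 1000 endothelial-like cells. Ngp was higher than in endothelial-like cells, at 177 per 1000 (139 to 221) against 82.2 (68.7 to 97.5). With the endothelial level per cell taken off, Camp stood at 11.1 and Ngp at 48.1 CPM in 9-week mature cells, against 0 and 29.1 at 6 weeks.

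**Figure D4:**
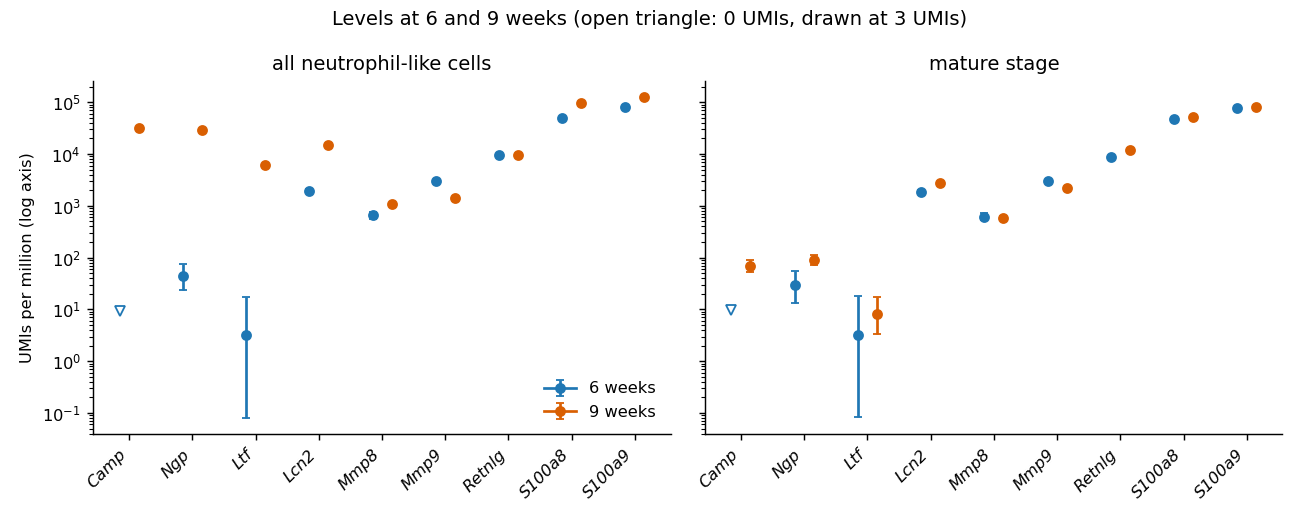
Level of each gene (y axis, CPM, log scale) at 6 weeks (blue) and 9 weeks (orange) in all neutrophil-like cells (left) and in the mature stage (right), with exact 95% counting intervals. An open triangle marks Camp at 6 weeks, with 0 UMIs, drawn at the level of 3 UMIs. The S100 genes, at 47551 and 52489 (S100a8) in mature cells, lie almost level between the ages on the right.

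Cells at the same place of the index could be compared in the 5 bins that held at least 20 cells at 6 weeks. In bins 7, 8 and 9, where 72 of 79, 76 of 80 and 79 of 80 cells at 9 weeks were of the mature stage, S100a8 was at 59348, 49362 and 59212 CPM at 6 weeks and 61950, 54926 and 53375 at 9 weeks. Lcn2 differed in bins 7 and 8, at 2249 and 2187 CPM at 6 weeks against 4640 and 3466 at 9 weeks, and was within counting error in bin 9 (2392 and 2585). Retnlg was lower at 6 weeks in bins 7 and 8, at 11833 and 10668 against 18004 and 13646, but higher in bin 9, at 15401 against 12542. At 9 weeks bin 7 also held 2 precursor and 5 immature cells, and bin 8 held 4 immature cells. At 6 weeks these bins held 1 and 0 immature cells. Camp stood at 718 and 912 CPM in them at 9 weeks, against 68.7 in the mature stage. The part of the less mature cells in the Lcn2 and Retnlg differences was not tested. In bin 5 Retnlg was at 4221 and 35455, and Mmp8 at 316 and 2904. That bin held 27 mature and 0 immature cells at 6 weeks but 41 mature, 35 immature and 4 precursor cells at 9 weeks, so equal index values did not stand for equal stages there. In bin 10 the 6-week cells were also lower, with S100a8 at 31609 against 48000 and Retnlg at 5086 against 11681. Mmp9 was higher at 6 weeks in bins 7 to 10, for example 3424 against 2450 in bin 7, but the intervals of the ages overlapped in bins 8, 9 and 10.

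The 3 immature cells at 6 weeks held 0 UMIs of Camp and 0 of Ltf each, with totals of 1899, 1783 and 5393 UMIs. Retnlg had 28, 25 and 299 UMIs in them and Lcn2 13, 1 and 30, and Ngp was found in 1 of the 3 cells, with 5 UMIs. In this they differ from the typical immature cell at 9 weeks, of which 93.2% held Camp. These 3 cells lay in index bins 4, 7 and 9. At 9 weeks, 72 of 79 cells in bin 7 and 79 of 80 in bin 9 were mature. Camp stood at 718 and 164 CPM in those 2 bins at 9 weeks. Whether the 3 cells belong to the immature stage was not tested.

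In the other classes the 9 genes were found at low levels at 9 weeks and in few cells at 6 weeks, and these levels are described as free RNA. Over all cells that were not neutrophil-like, the sum of the 9 genes was 0.173 UMIs per cell at 6 weeks and 2.90 at 9 weeks. A few cells hold much of this: 6 cells at 6 weeks and 45 at 9 weeks had 10 or more member UMIs, and 1 plasmacytoid dendritic-like cell at 9 weeks held 5232, among them 613 of the 617 Camp UMIs of its class. At 6 weeks 1 plasma cell-like cell held 420 of 422 and 1 T/NK-like cell 227 of 238 member UMIs. Without such cells the sums were 0.0503 and 1.44 UMIs per cell. Taken with all cells, 7 of 8 comparable classes were at least 1.5-fold higher at 9 weeks and plasma cell-like cells (6.39 and 6.54 UMIs per cell) were not. Without the cells of 10 or more, all 8 were. Gene by gene, over all cells of a class, 6 of 6 measured members were higher at 9 weeks in B-like cells (16.5% of all genes higher, 6.21% lower), 7 of 7 in T/NK-like cells (3.57% and 2.77%) and 2 of 2 in adrenocortical-like cells (7.76% and 4.03%). The counts were 2 of 2 in dendritic-like cells (1.4% and 1.87%), 6 of 6 in endothelial-like cells (1.34% and 1.26%) and 5 of 5 in macrophage-like cells (1.47% and 2.48%). In monocyte-like cells 7 of 8 were higher (6.32% and 3.8%), and in plasma cell-like cells 1 of 3 (18% and 7%). No member was lower in any of these classes. A member that passed the filter only through the 9-week library had to differ, so nothing is read from these counts. Neutrophil-like cells held 45749 member UMIs in the 6-week library and 1685887 in the 9-week library.

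At 9 weeks Camp was at 96.4 to 146 UMIs per 1000 cells in the 8 classes without those cells, lowest in plasma cell-like and highest in dendritic-like cells. The ranges were 68.6 to 120 for Ngp, 21.3 to 46.9 for Ltf, 24.1 to 56.9 for Retnlg, 382 to 602 for S100a8 and 520 to 766 for S100a9. Median depth in these classes ran from 2619 UMIs per cell (endothelial-like) to 15132 (dendritic-like), and its part in the ranges was not tested. The mature neutrophils lay 231 times above the median class for S100a8, 243 times for S100a9, 576 times for Retnlg and 99.9 times for Lcn2.

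The ratios between the genes in other cells lay nearer to those of immature neutrophils than to those of mature neutrophils for Camp, Ngp, Ltf and Lcn2. Per 100 UMIs of S100a8, all other cells at 9 weeks (without the cells of 10 or more) held 26.6 of Camp, 19.9 of Ngp, 5.90 of Ltf, 13.5 of Lcn2 and 10.9 of Retnlg. The immature neutrophils held 28.2, 30.2, 7.50, 17.4 and 13.1, the precursors 47.3, 39.2, 6.08, 16.0 and 2.00, and the mature neutrophils 0.131, 0.171, 0.0158, 5.31 and 22.8. All neutrophil-like cells at 9 weeks held 32.8, 30.9, 6.33, 15.8 and 9.87. For Ltf, Lcn2 and Retnlg the other cells lay nearer to these values than to the immature stage. For Camp and Ngp they lay nearer to the immature stage, and for Ltf the precursors were nearest. Which stage gave this RNA was not tested. For Camp the ratio lay between 16.0 and 30.02 in all 8 classes. At 6 weeks the other classes held 0 UMIs of Ngp in 7941 cells, where the neutrophil-like cells had 14.

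Some levels in other classes did not follow this pattern. In monocyte-like cells Mmp8 stood at 451 UMIs per 1000 (376 to 538) in the 9-week library and at 280 (202 to 378) in the 6-week library, while the next highest of the 8 classes was at 8.16 and 2.09. In the main monocyte cluster, led by Fn1, F13a1 and Plac8, Mmp8 was found in 26.9% of cells at 9 weeks and 15.9% at 6 weeks, with at most 6 and 7 UMIs in a cell, against 0.353% and 0.313% of macrophage-like cells (median depths of 7122 and 5910 UMIs, and 7724 and 6775 in monocyte-like cells). After thinning to 1000 UMIs the monocyte shares were 4.58% and 2.65%. Lcn2 was at 148 per 1000 monocyte-like cells (106 to 201) at 9 weeks, against at most 63.7 in the other 7 classes. Neutrophil markers were also found in monocyte-like cells. Over all cells at 6 weeks, the mature markers summed to 260 CPM there and to 265 in plasma cell-like cells. The precursor markers summed to 9.04, against 14.7 in T/NK-like cells. At 9 weeks these 2 sums were 362 and 135, against at most 116 and 14.8 in the other 7 classes. The immature markers summed to 691 at 6 weeks and 3199 at 9 weeks, against at most 179 and 164. With the cells of 10 or more member UMIs left out, the 10 immature neutrophil markers summed to 676 CPM at 6 weeks and 2852 at 9 weeks, with 4 of 10 above 10 CPM at each age and 5 and 3 at 0. Chil3, which is a monocyte marker too, held 470 and 2643 of these, and the others summed to 206 and 209. The 7 granulocyte precursor markers summed to 9.10 and 137 CPM (0 and 3 above 10 CPM, 4 and 2 at 0) and the 10 mature neutrophil markers to 244 and 339 (4 above 10 CPM at each age, 2 and 0 at 0). Their part in the Mmp8 and Lcn2 values was not tested. Mmp9 was at 38.1 per 1000 T/NK-like cells (27.4 to 51.5), where the median of the 8 classes was 7.82 and the next highest 24.1, and in the T cell cluster led by Cxcr6, Cd3g and Trac it was found in 9.28% of cells at 9 weeks and 2.29% at 6 weeks. That cluster held 48 Mmp9 UMIs in 32 cells at 9 weeks and 3 UMIs in 3 cells at 6 weeks.

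At 6 weeks, where free RNA was scarce, other stray transcripts appeared. Camp had 25 UMIs in adrenocortical-like cells (5.82 per 1000, 3.77 to 8.59) while it was at 0 in the neutrophil-like cells and in the other 7 classes. Ltf had 17 UMIs in 15 endothelial-like cells (11.1 per 1000, 6.46 to 17.8), 1 in macrophage-like cells and 0 in the other 6 classes. These UMIs were spread over many cells, at most 2 per cell for Camp and 3 for Ltf. Their source was not tested.

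**Figure D5:**
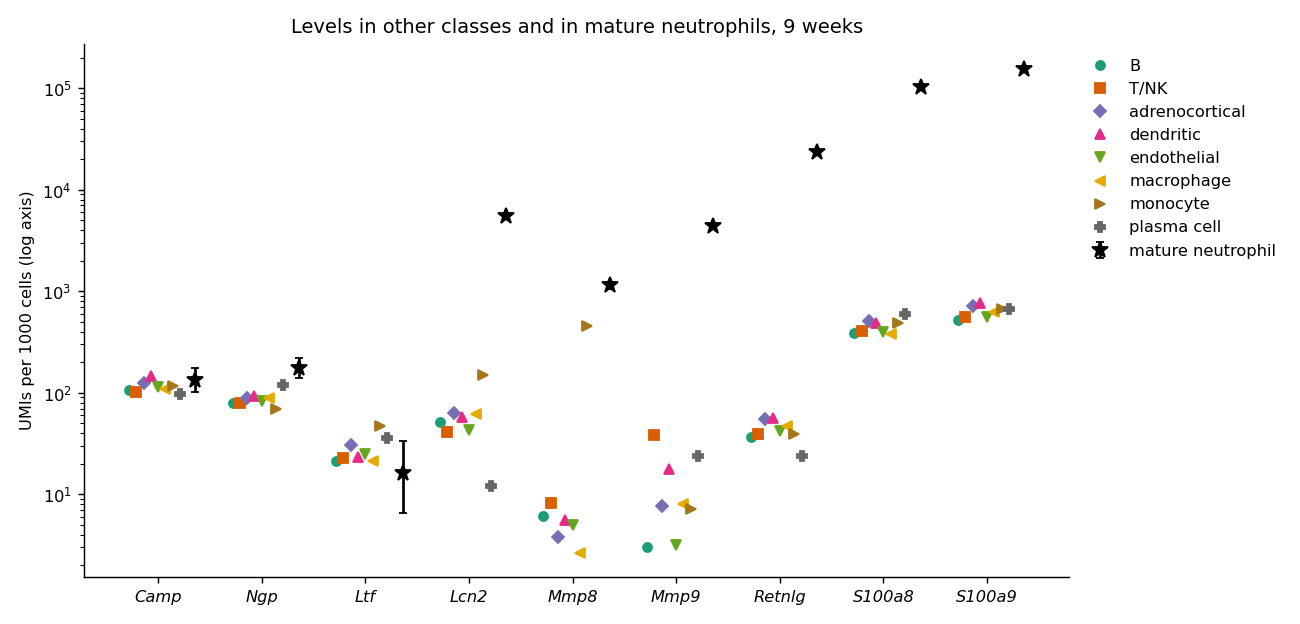
UMIs per 1000 cells (y axis, log scale) of each gene (x axis) at 9 weeks in 8 other classes, without cells of 10 or more member UMIs, and in mature neutrophils (black star, with exact 95% counting intervals). Camp, at 135 in mature neutrophils, lies among the other classes, S100a8 does not, and Mmp8 in monocyte-like cells stands apart at 451. Mmp8 in plasma cell-like cells had 0 UMIs and is not drawn.

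Of the 12 listed receptors, partners and inhibitors of these proteins, 7 were measured in neutrophils, and of the 4 measured in mature cells 0 were called higher and 0 lower, beside 9.61% and 15.9% of all genes. Emb, a receptor for S100a8 and S100a9, was at 125, 239 and 880 CPM in the precursor, immature and mature stages at 9 weeks and at 763 in mature cells at 6 weeks. Per cell its order was the reverse, at 2.82, 1.98 and 1.73 UMIs. Tlr4, a further receptor of calprotectin, was at 18.1, 14.6 and 85.2 CPM and at 0.408, 0.121 and 0.167 UMIs per cell in the 3 stages. Slc22a17, a receptor for Lcn2, had 0 and 1 UMIs in neutrophil-like cells and was found in adrenocortical-like cells at 11.4 CPM at 6 weeks and 17.3 at 9 weeks. It was also at 10.9 and 10.6 CPM in endothelial-like cells and at 9.91 and 6.37 in plasma cell-like cells. Timp1, an inhibitor of the matrix metalloproteinases, was at 28.7 and 63.6 CPM in adrenocortical-like cells, with 0 and 4 UMIs in neutrophil-like cells. Timp2 was at 255 and 142 CPM in neutrophil-like cells and at 354 and 250 in macrophage-like cells. Timp3 was at 276 and 554 CPM in adrenocortical-like cells and at 3065 and 3402 in endothelial-like cells.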

How the data were processed

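The deposited values are counts of unique molecular identifiers (UMIs) per gene and barcode, which the authors had not normalized. Per the labels' protocols, cells were sorted as viable and dye-positive after lysis of red blood cells and captured with Chromium 3' v3.1 chemistry. Cell Ranger 6.0.1, mm10 and Seurat (no version) are named per the submitters' processing notes. The annotation release is not given in the sources used.

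The libraries held 97001752 UMIs in 8880 barcodes (6 weeks) and 99728879 in 10812 (9 weeks). Barcodes with under 500 genes or over 25% mitochondrial UMIs, and doublets called by Scrublet in scanpy 1.11.5 (475 and 586), were removed. This left 8133 and 9941 cells with median depths of 11348 and 7029 UMIs. The libraries shared 29 barcodes. Cells were clustered without the 9 genes (2000 variable genes, 30 principal components, 20 neighbours, Leiden resolution 2, igraph 0.11.9) and named by markers that held none of them. Neutrophil-like clusters were clustered again at resolution 0.5 for the stages. Since these names were rebuilt, they alone can make results differ from the study's.

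For each class in each library the UMIs of all its cells were added up and expressed as counts per 1e6 UMIs (CPM). Genes counted as measured had 10 CPM in 1 library and 10 UMIs in all, and were called higher or lower where the ratio, with 5 CPM added to both levels, reached 1.5, which understates the change of low genes. Levels carry exact Poisson, shares exact Clopper-Pearson and ratios exact conditional binomial 95% intervals, which cover counting error only. Classes with 50 cells at each age were compared. Calculations used numpy 2.4.6, scipy 1.17.1 and pandas 2.3.3 and were tested on simulated data. Alternatives were other gene minimums, doublets kept, members kept for clustering, other totals, pseudocounts, filters, orderings and bins. The 9 genes, the lists and the markers were chosen with earlier results of these data known. The naming scores, the clustering resolution, the precursor groups and 3 alternatives (resolution 1, the endothelial level taken off, cells with macrophage UMIs left out) were chosen after the data were seen. All 9 genes are named, and other genes only as list members with the highest levels, as the 3 nearest over the bins, or as leading genes of a cluster.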

Additional observations from a re-analysis of the deposited data

Results flagged for a closer look

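Mmp9 had age ratios of opposite sign in neutrophil-like cells and in the other cells when both are given in CPM. In neutrophil-like cells it was at 2979 CPM at 6 weeks and 1432 at 9 weeks, a log2 ratio of -1.05. In all other cells, without those of 10 or more member UMIs, it was at 0.372 and 1.34 CPM, a log2 ratio of 0.24 that is under the filter on low values and under the fold. In UMIs per 1000 cells both rose, from 4938 to 9610 in neutrophil-like cells and from 4.03 to 12.2 in the others. The difference between these groups of cells was not tested, since each age has 1 library.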

How the results depend on the processing

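No paired analysis was possible because each age has 1 library. Of 34 recomputed counts of members or classes, 33 stayed within 1.5 times of the reported one. Among recomputed values of single genes, 196 stayed within the counting interval of the reported value (mean positions within a set tolerance), 46 moved further and 1 changed sign. With at least 1000 genes per barcode, 26 neutrophil-like cells remained at 6 weeks and 453 at 9 weeks. The stage names moved as well: 12 of these 26 cells were named mature, against 189 of 192, and 92 of the 453, and some clusters were led by endothelial or macrophage genes. Then 6 members in place of 2 were higher in the mature stage, beside 27.7% of all genes. Under that minimum Mmp9 turned in neutrophil-like cells, to a log2 ratio of 0.43 (898 and 1215 CPM); the cause was not tested. With doublets kept, 6 members in place of 7 were higher in neutrophil-like cells. With no filter on low values 21.7% of all genes were higher and 20.3% lower there, and in the mature stage 9.84% and 21.3%. Lcn2 passed the fold in the mature stage with the members among the clustering genes and with their UMIs left out of the totals (log2 0.59 in each). The order of the genes began with Camp, Ngp, Ltf and Lcn2 under all 10 alternatives, and the positions moved most with 1000 genes (Camp 0.330) and with thinned cells (Camp 0.258). Depth limits the 6-week values, where neutrophil-like cells held 318240 UMIs in all. Precursor and immature levels rest on the 9-week library alone. Cells with 10 or more member UMIs were left out by the quantity compared, which caps the levels in other classes.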
